A study of Homo sapiens with 6 samples.

Results

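Chromosomes 4 and 13 are among the human chromosomes with the fewest genes for their length, and the open chromatin on them was described in 3 leukemia lines with and without knockdown of NSD2. Peaks of 12 ATAC-seq lists were merged wherever they overlapped by at least 1 bp, and every merged region on either chromosome was taken. This gave 13313 of 130887 regions (10.2%), 9119 on chromosome 4 and 4194 on chromosome 13. The choice used position only and no measured difference between samples.

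ATAC-seq marks accessible DNA with the Tn5 transposase, so a peak stands for a stretch of open chromatin such as an active promoter or enhancer. The 6 samples were the B-cell acute lymphoblastic leukemia lines RS4;11, SEM and RCH, each carrying NT, a non-targeting control shRNA, or sh2, an shRNA against NSD2, 1 sample per line and shRNA. RCH was read as the RCH-ACV line named in the growth protocol, RS4;11 and SEM are known for a KMT2A-AFF1 fusion, and the tissue label of all samples is bone marrow. Each sample came with 2 peak lists, called list 1 and list 2 here, and nothing says that separate cultures gave them. Their spread, and with it every comparison of lists below, may therefore be technical.

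NSD2 places dimethylation on lysine 36 of histone H3, a mark that covers broad stretches between genes as well as gene bodies. Gene-poor chromosomes hold long stretches without genes, much of it replicated late and lying near the nuclear rim, with open sites grouped in between. Among genes known in B-cell leukemia, AFF1, KIT, LEF1 and TET2 lie on chromosome 4 and FLT3, FOXO1 and RB1 on chromosome 13. No gene was assigned to a region, all coordinates are hg19 counted from 1, and NSD2 itself and its knockdown were not analysed here.

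The 12 lists held 718792 peaks on chromosomes 1 to 22 and X, from 41594 to 84794 per list. List length differed between NT and sh2 within every line, with sh2 lists shorter by 21.4% in RS4;11, longer by 16.1% in SEM and shorter by 24.4% in RCH. The median fold enrichment of a list's peaks moved as well, from 6.67 and 6.81 with NT to 7.10 and 7.04 with sh2 in RS4;11, from 6.25 and 6.29 to 6.42 and 6.50 in SEM, and from 6.08 and 6.11 to 5.42 and 5.32 in RCH. Fold enrichment is the value the authors deposited with each peak, read as signal over the background of the same library. Results are therefore given as deposited and with each line's lists cut to equal length, keeping the peaks of highest fold, which left 61551 peaks per list in RS4;11, 53837 in SEM and 41594 in RCH. The part of list length and fold in the differences below was not tested beyond this.

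The label of gene-poor chromosomes was checked first. RefSeq lists 770 protein-coding genes on chromosome 4 and 338 on chromosome 13 (GRCh38.p14, used for counts per chromosome only). That is 19.7 and 16.1 genes per 5 Mb window holding any region, ranks 3 and 1 from the lowest of 23 chromosomes. Regions open in all 12 lists were sparse too, at 26.1 and 22.8 per window, ranks 4 and 2 from the lowest. Regions of any kind were not sparse on chromosome 4, whose 233.8 per window gave it rank 19, whereas chromosome 13 with 199.7 had rank 5.

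In the lists as deposited, the regions of both chromosomes were shared by fewer lists than those elsewhere. Regions open in all 12 lists numbered 1018 on chromosome 4 (11.2%) and 478 on chromosome 13 (11.4%), against 17% of the regions on other chromosomes. A peak in a single list made up 35% of the regions on the pair of chromosomes and 27.5% of those elsewhere. Open in all 3 lines, in at least 1 list each, were 28.7% of regions on chromosome 4 and 26.8% on chromosome 13, against 36.0% elsewhere. RS4;11 was the only line with a peak at 30.4% and 35.6% of them, against 19.8%. RS4;11 also had the longest lists, and with all 12 lists cut to 41594 peaks its own share was 10.7% and 16.6%, against 8.45%. At that length the single-list share of the pair, 21.4%, was no longer above the share elsewhere. Open in all 3 lines were then 40.1% of regions on chromosome 4 and 35.3% on chromosome 13, against 40.5% elsewhere. Regions open in all 12 lists remained a smaller share, at 17.3% and 17.2% against 20.1%. The lower sharing thus held only in part at equal length. These shares are descriptions with no test.

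Widths differed little between chromosomes, and spacing differed more. The median region was 325 bp wide on chromosome 4 and 339 bp on chromosome 13, against 363 bp elsewhere, and regions open in all 12 lists had medians of 837.5, 863 and 837 bp. The median gap to the next region was 12.4 kb and 12.9 kb, against 11.1 kb. Between neighbouring regions open in all 12 lists the median gap was 81.2 kb and 93.0 kb, against 51.7 kb. The longest stretch of chromosome 4 with no region in any list ran from 49515457 to 52661823 (3146 kb) and takes in the centromere, and the next was 252 kb. Chromosome 13 is acrocentric, its first region began at 19280697, and its longest stretch without a region was 288 kb, from 35034283 to 35322219.

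Within chromosome 4 the densest 5 Mb window was 170 to 175 Mb with 317 regions, followed by 5 to 10 Mb. Its thinnest were the partly covered end window from 190 Mb with 58 regions and the centromeric window from 50 to 55 Mb. On chromosome 13 the windows from 110 to 115 Mb and from 30 to 35 Mb held 291 and 262 regions, and the end windows from 15 Mb and from 115 Mb held 7 and 8.

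The first comparison asked how many peaks each chromosome carried with and without knockdown. With sh2 both chromosomes carried fewer peaks in the RS4;11 and RCH lists, and more in the SEM lists. On chromosome 4 RS4;11 had 5892 and 5143 peaks in the NT lists and 3663 and 3768 in the sh2 lists, a change of -32.7%. SEM went from 3055 and 2877 to 3848 and 3833, a change of 29.5%, and RCH from 3273 and 3304 to 2036 and 1879, a change of -40.5%. In all 3 lines both sh2 lists lay outside the range of the NT lists, as they did for the peaks of all chromosomes together.

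Chromosome 13 moved in the same directions. RS4;11 had 2913 and 2554 peaks with NT and 1949 and 2006 with sh2 (-27.7%). SEM had 1223 and 1079 with NT and 1495 and 1506 with sh2 (30.4%), and RCH had 1635 and 1633 with NT and 1056 and 980 with sh2 (-37.7%). All 6 changes were larger than those of the whole lists, and the NT and sh2 lists did not overlap in any line, again as for the whole lists.

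Cutting the lists to equal length made the changes smaller and kept their directions. On chromosome 4 RS4;11 then had 3988 and 4009 NT peaks and 3663 and 3620 sh2 peaks (-8.93%), SEM 3008 and 2877 against 3181 and 3328 (10.6%), and RCH 2268 and 2406 against 1927 and 1879 (-18.6%). On chromosome 13 the values were 2050 and 2034 against 1949 and 1947 in RS4;11 (-4.60%), 1203 and 1079 against 1329 and 1351 in SEM (17.4%), and 1210 and 1213 against 1014 and 980 in RCH (-17.7%). The NT and sh2 lists again did not overlap in any line on either chromosome. How many of the other chromosomes also had no overlap was not counted.

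**Figure D1:**
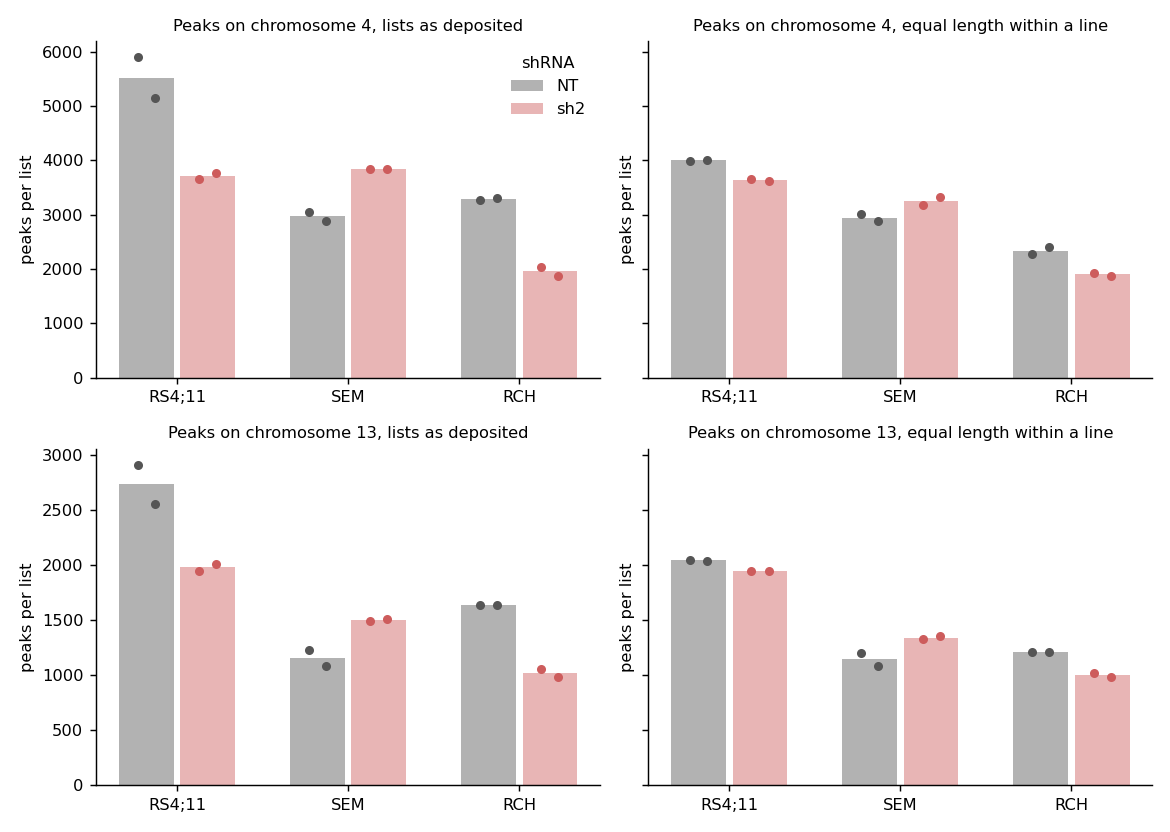
Peaks per list on chromosome 4 (top) and chromosome 13 (bottom), as deposited (left) and with each line's lists cut to equal length (right). Bars are means of 2 lists and points are the lists. With sh2 the points lie below those of NT in RS4;11 and RCH and above them in SEM in all 4 panels, with smaller gaps at equal length.

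Measured against the other chromosomes, the direction differed between lines. The log2 ratio of mean peak number, sh2 over NT, minus the same ratio for all other chromosomes was -0.24 (RS4;11), 0.17 (SEM) and -0.37 (RCH) on chromosome 4, with a mean of -0.15 ± 0.28 (SD, n = 3 lines). On chromosome 13 it was -0.14, 0.18 and -0.31, with a mean of -0.09 ± 0.25. Neither mean passed an exact two-sided test that flips the signs of the 3 lines (p = 0.5 and p = 0.75, Benjamini-Hochberg adjusted p = 0.75 for both), a design whose smallest p is 0.25. At equal length the values were -0.15, 0.16 and -0.32 on chromosome 4 and -0.08, 0.25 and -0.31 on chromosome 13. The sign of the chromosome 13 mean rested on RCH, without which it was 0.021.

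Ranked among the 23 chromosomes by the log2 ratio, chromosome 4 had rank 1 from the lowest in RS4;11, 21 in SEM and 1 in RCH. Chromosome 13 had ranks 3, 22 and 3. At equal length chromosome 4 kept its 3 ranks, and chromosome 13 had ranks 6, 22 and 3. Other sparse chromosomes ranked near them. Chromosome X, with rank 1 from the lowest in always-open regions per window, had ranks 2, 23 and 4 both as deposited and at equal length. Chromosome 18, with rank 2 in genes per window, had ranks 8, 20 and 2, and at equal length 4, 20 and 2. Such ranks were thus not particular to chromosomes 4 and 13.

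The position of the peaks within their own list also moved. A list's peaks were ranked by fold from 0 to 100, and on chromosome 4 the median rank in RCH was 46.7 and 49.3 in the NT lists and 52.5 and 53.3 in the sh2 lists. In RS4;11 and SEM the chromosome 4 medians lay between 46.1 and 51.8 in all lists. The RCH sh2 lists thus held fewer peaks of chromosome 4, placed higher in the list.

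Single regions were then sorted by which lists of a line had a peak there. A region was called NT-only where both NT lists and neither sh2 list had one, and sh2-only in the reverse case. In RS4;11, 932 of 7012 open regions on chromosome 4 (13.3%) and 384 of 3412 on chromosome 13 (11.3%) were NT-only, where 9.79% of the open regions of all chromosomes were. Its sh2-only regions numbered 23 and 12 (0.328% and 0.352%), beside 0.854% over all chromosomes. In SEM, NT-only regions numbered 99 of 4805 (2.06%) and 32 of 1822 (1.76%), beside 2.59%, and sh2-only regions 498 (10.4%) and 197 (10.8%), beside 7.69%. In RCH, NT-only regions numbered 621 of 4321 (14.4%) and 297 of 2052 (14.5%), beside 10.6%, and sh2-only regions 20 (0.463%) and 15 (0.731%), beside 1.90%.

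The shares therefore leaned further toward NT-only in RS4;11 and RCH, and toward sh2-only in SEM, than the shares of all chromosomes did. Of the changed regions of both chromosomes together, 2.59% were sh2-only in RS4;11 (exact binomial 95% interval 1.81 to 3.58), against 8.85% on other chromosomes. In SEM it was 84.1% (81.5 to 86.6) against 73.8%, and in RCH 3.67% (2.57 to 5.07) against 16.6%. These intervals cover counting error over regions only, since regions of 1 sample are not replicates.

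At equal length the 2 chromosomes held 735 NT-only and 201 sh2-only regions of RS4;11, 9.25% and 2.53% of its open regions beside 6.46% and 3.68% over all chromosomes. SEM had 226 and 516 (3.73% and 8.52%, beside 4.98% and 6.07%), and RCH 496 and 93 (10.3% and 1.93%, beside 6.71% and 4.90%). The sh2-only share of changed regions was 21.5% (RS4;11), 69.5% (SEM) and 15.8% (RCH), against 38.2%, 53.5% and 44.6% on other chromosomes. Many of the regions on the smaller side came from the cut itself. Of the 201 sh2-only regions of RS4;11, 169 had an NT peak in the deposited lists, as had 64 of the 93 of RCH, and 97 of the 226 NT-only regions of SEM had a deposited sh2 peak.

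The counts also depended on each list, because a call then rests on the list left. In RS4;11, NT-only regions numbered 2218 or 3127 without NT list 1 or 2, when 161 or 95 were sh2-only, and leaving out sh2 list 1 or 2 gave 402 or 393 sh2-only regions. SEM had 331 or 446 NT-only regions without an NT list, and 1085 sh2-only ones without NT list 1. Leaving out sh2 list 1 or 2 gave it 225 or 240 NT-only and 1327 or 1340 sh2-only regions. In RCH, leaving out NT list 1 or 2 gave 1906 or 1908 NT-only regions and 72 or 79 sh2-only ones, and leaving out sh2 list 1 or 2 gave 284 or 276 sh2-only regions. The larger class stayed the same in each line under all 12 omissions.

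Changed regions were weak peaks and, in 2 lines, lay far from regions open everywhere. Low fold is partly built into the classes, since a changed region has no peak in some lists and the compared regions have one in all 4. On chromosome 4 the median NT fold of NT-only regions was 5.22 in RS4;11 and 5.35 in RCH, beside 9.82 and 9.36 at its regions open in all 4 lists of the line. In SEM the median sh2 fold of sh2-only regions was 5.48 on chromosome 4 and 5.62 on chromosome 13, beside 8.92 and 8.90 at regions open in all 4. On other chromosomes the same medians were 5.27 beside 9.18 in RS4;11, 5.33 beside 8.32 in RCH and 5.38 beside 8.17 in SEM. Weak changed regions were thus not particular to chromosomes 4 and 13. The median distance from an NT-only region of RS4;11 to its closest neighbour open in all 12 lists was 103.8 kb on chromosome 4 and 131.0 kb on chromosome 13. Regions open in all 4 RS4;11 lists, but not in all 12, lay at 41.6 and 44.3 kb. In RCH the distances were 84.7 and 86.7 kb for NT-only regions and 53.5 and 40.9 kb for regions open in all 4. The sh2-only regions of SEM lay at 40.8 and 58.8 kb, close to the 53.4 and 56.5 kb of its regions open in all 4.

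Peaks were next counted in 5 Mb windows to see whether the changes were spread along the chromosomes. A window was called lower with sh2 where both sh2 lists held fewer peaks than both NT lists, and higher in the reverse case. In RS4;11, 38 of 39 windows of chromosome 4 and 19 of 21 of chromosome 13 were lower (95%), where 78.7% of the windows of all chromosomes were, and 1 was higher, where 3.52% were. In RCH, 38 of 39 and 19 of 21 were lower (95%, beside 82.6%) and none was higher (beside 7.36%). In SEM, 39 of 39 and 16 of 20 were higher (93.2%, beside 73.5%) and none was lower (beside 6.54%).

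Medians of the log2 ratio were taken over windows with a mean of at least 20 peaks. The median was -0.61 on chromosome 4 and -0.48 on chromosome 13 in RS4;11, against -0.35 elsewhere. It was 0.38 and 0.44 in SEM against 0.25, and -0.76 and -0.80 in RCH against -0.48. A window lower in RS4;11 and RCH and higher in SEM was the pattern of 38 of 39 windows of chromosome 4 and 15 of 20 of chromosome 13, where 67.4% of all windows had it, and no window had the reverse, where 1.51% did. No window on either chromosome was lower in all 3 lines (beside 0.504%) or higher in all 3 (beside 0%).

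With lists of equal length, 39 of 60 windows were lower and 9 higher in RS4;11 (65.0% and 15%, beside 44.7% and 30.8%). In RCH 47 were lower and 3 higher (78.3% and 5.00%, beside 53.0% and 27.1%), and in SEM 3 of 59 were lower and 42 higher (5.08% and 71.2%, beside 28.2% and 45.8%). The pattern of the 3 lines together then held in 19 windows of chromosome 4 and 10 of chromosome 13, where 28.4% of all windows had it. Its reverse was seen in 2 windows of chromosome 4, where 18.7% of all windows had it, and none was lower in all 3 lines, where 0.672% were.

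**Figure D2:**
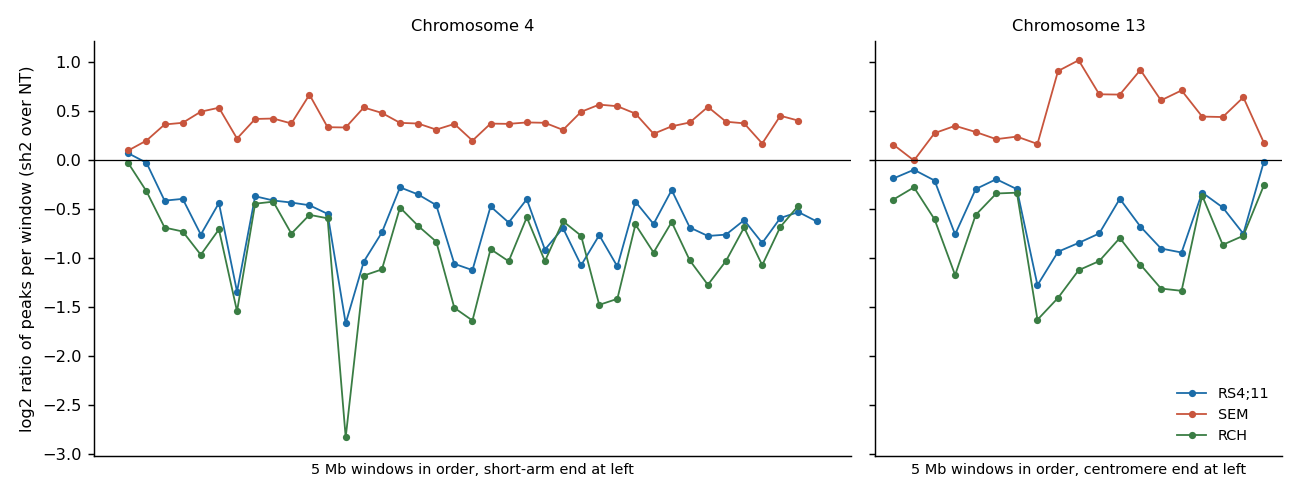
Log2 ratio of peaks (mean of the sh2 lists over mean of the NT lists, as deposited) in successive 5 Mb windows of chromosome 4 and chromosome 13, for windows with a mean of at least 20 peaks over the 4 lists of the line. RS4;11 and RCH dip in the same windows, to -1.66 and -2.83 in a single window of chromosome 4, while SEM stays above 0 in all but 1 plotted window and is highest, at 1.01, in the middle of chromosome 13.

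The lowest ratios lay in windows with few regions open everywhere. From 60 to 65 Mb on chromosome 4, with 173 regions of which 2 were open in all 12 lists, RS4;11 had 88 and 80 NT peaks and 25 and 28 sh2 peaks (log2 ratio -1.66). In the same window RCH had 47 and 31 NT peaks and 8 and 3 sh2 peaks (-2.83). The window from 30 to 35 Mb of chromosome 4, with 174 regions and 8 open in all lists, had a mean of 90.0 NT peaks and 32 and 39 sh2 peaks in RS4;11, where the lists did not overlap (-1.34). In RCH the window from 95 to 100 Mb was the second lowest of chromosome 4, with 64 and 51 NT peaks and 23 and 14 sh2 peaks (-1.64).

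Among chromosome 13 windows with a mean of at least 20 peaks, the lowest in both lines ran from 55 to 60 Mb. It held 169 regions, 6 of them open in all lists. RS4;11 had 111 and 90 NT peaks and 38 and 45 sh2 peaks there (-1.28), and RCH had 53 and 49 against 17 and 16 (-1.63). Next came 90 to 95 Mb in RS4;11, with 118 and 107 against 58 and 59 (-0.94), and 60 to 65 Mb in RCH, with 68 and 75 against 30 and 24 (-1.40).

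In RS4;11 and RCH the least changed windows lay near the short-arm end of chromosome 4 and the long-arm end of chromosome 13. They held many regions open everywhere. From 0 to 5 Mb on chromosome 4, with 289 regions and 68 open in all 12 lists, RS4;11 had 166 and 172 NT peaks and 178 and 176 sh2 peaks (0.07). There RCH had 157 and 141 against 149 and 142 (-0.03), and SEM 137 and 138 against 143 and 151 (0.10). At equal length this window was higher with sh2 in RS4;11 and RCH (0.33 and 0.41) and lower in SEM (-0.14), the reverse of the chromosome as a whole. The next window, 5 to 10 Mb, showed the same at equal length (0.28, 0.15 and -0.16 in RS4;11, RCH and SEM). On chromosome 13 the last large window, 110 to 115 Mb, had 186 and 169 NT peaks and 175 and 176 sh2 peaks in RS4;11 (-0.02) and 152 and 147 against 124 and 126 in RCH (-0.26). Next on chromosome 13 came 25 to 30 Mb, away from the ends (-0.10 in RS4;11 and -0.28 in RCH). The long-arm end of chromosome 4 did change, with -0.53 in RS4;11 and -0.47 in RCH from 185 to 190 Mb.

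SEM gained most in the middle of chromosome 13. From 65 to 70 Mb it had 25 and 23 NT peaks and 50 and 47 sh2 peaks (1.01), and from 80 to 85 Mb it had 38 and 33 against 66 and 68 (0.92). On chromosome 4 its highest windows were 50 to 55 Mb, with 37 and 28 against 54 and 49 (0.66), and 130 to 135 Mb, with 46 and 42 against 67 and 63 (0.56). From 25 to 30 Mb on chromosome 13 SEM had 118 and 117 NT peaks and 115 and 119 sh2 peaks (-0.01), so that the lists overlapped, and at equal length 112 and 117 against 89 and 88 (-0.37).

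Among windows with a mean of at least 20 peaks, the 20 windows of the genome with the most extreme ratios were counted by chromosome. Of the 20 windows with the lowest log2 ratio in RS4;11, 4 lay on chromosome 4 and 1 on chromosome 13 (25%, where the 2 chromosomes hold 9.95% of the windows), and in RCH 6 and 2 (40.0%, against 9.93%). Of the 20 highest windows in SEM, 1 lay on chromosome 4 and 6 on chromosome 13 (35%, against 9.84%), so that chromosome 4 had 5.00% of them with 6.56% of the windows. At equal length the shares of both chromosomes were 20.0% in RS4;11, 25% in RCH and 45.0% in SEM, where again 1 lay on chromosome 4.

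Windows with a mean of at least 20 peaks were sorted by how many regions were open in all 12 lists. This ordered the ratios in RS4;11 and RCH. In windows of chromosomes 4 and 13 with at most 15 such regions the median log2 ratio was -0.94 in RS4;11 and -1.37 in RCH, with 16 to 30 it was -0.65 and -0.94, and with more than 30 it was -0.32 and -0.52. Windows of other chromosomes gave -0.78 and -1.12, -0.56 and -0.78, and -0.21 and -0.33. In SEM the medians were 0.54, 0.42 and 0.33, against 0.38, 0.37 and 0.17. Within each class and line the median of the 2 chromosomes was thus further from 0 than that of the others, as deposited. The top class has no upper limit and windows were not matched for density within a class, so a difference beyond density was not tested.

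At equal length the medians were -0.38, -0.20 and -0.01 in RS4;11 (others -0.33, -0.19 and 0.06) and -0.74, -0.46 and -0.17 in RCH (others -0.58, -0.33 and 0.03). In SEM they were 0.28, 0.17 and 0.12 (others 0.19, 0.15 and -0.04). Spearman's rho between the ratio and the number of always-open regions per window of both chromosomes was 0.85 in RS4;11 (58 windows), and over 57 windows it was 0.86 in RCH and -0.39 in SEM. Regions open in every list are counted with both shRNAs by definition. With peaks in those regions left out rho was 0.79, 0.79 and -0.30 in the same order. The count itself still needs a peak in every sh2 list, so ratio and count remain partly tied by definition. The same holds for the density classes, and the size of this part was not tested. The ratios of RS4;11 and RCH, which share no library, had a rho of 0.90 with each other over 57 windows (0.72 over 56 at equal length). These are descriptions over windows that share libraries.

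**Figure D3:**
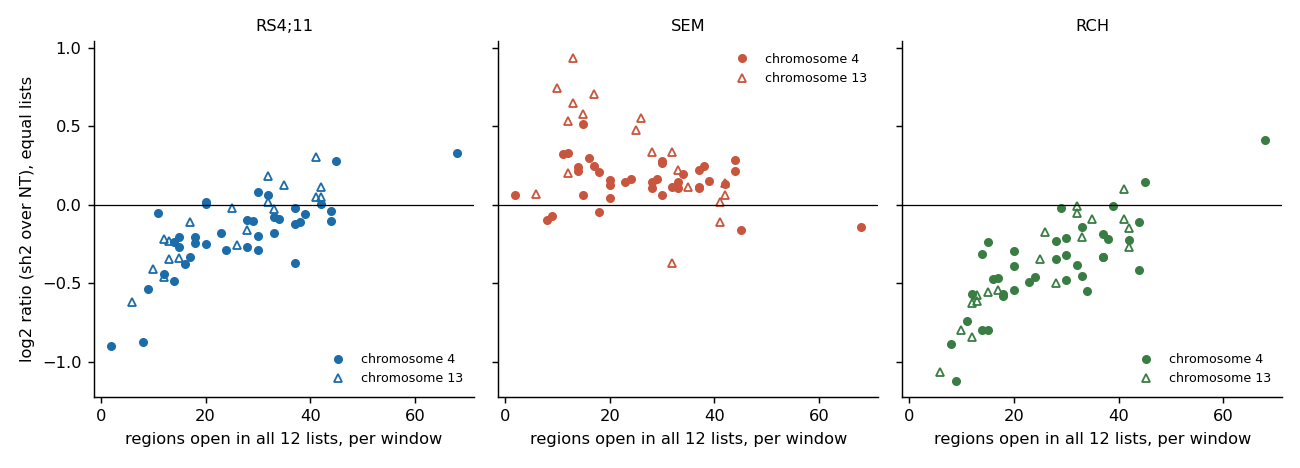
Log2 ratio of peaks (sh2 over NT, lists of equal length within a line) against the count of regions open in all 12 lists, 1 point per 5 Mb window of chromosome 4 (filled circles) or chromosome 13 (open triangles), for windows with a mean of at least 20 peaks. In RS4;11 and RCH the points climb from left to right, with medians of -0.38 and -0.74 up to 15 regions and -0.01 and -0.17 above 30, and in SEM the highest points are chromosome 13 windows at the left.

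Regions open in all 12 lists do not enter or leave a list, so their fold was compared instead. In each list the 21535 such regions of all chromosomes were ranked by fold from 0 to 100, which removes list length and scale, and the median rank of each chromosome's regions was taken. On chromosome 4 (1018 regions) it was 65.6 and 65.0 with NT and 61.6 and 61.3 with sh2 in RS4;11, and 59.8 and 61.1 against 50.4 and 50.1 in RCH. In SEM the NT lists were at 54.8 and 53.4 and the sh2 lists at 62.4 and 62.5. The lists did not overlap in any line, with sh2 lower in RS4;11 and RCH and higher in SEM.

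On chromosome 13 (478 regions) RCH went from 60.5 and 62.0 to 54.8 and 54.8, and SEM from 51 and 48.3 to 53.9 and 56.0. In RS4;11 the lists overlapped, at 64.7 and 65.4 with NT and 65.2 and 64.0 with sh2. On other chromosomes the differences were 0.17, -0.55 and 0.75 in RS4;11, SEM and RCH. There too the NT and sh2 lists did not overlap in any line. All regions of a list share a single ranking, so a fall on some chromosomes raises the ranks of the others. The small differences elsewhere are thus not a separate comparison. Over the 3 lines neither chromosome's difference from NT passed the same exact two-sided test of sign flips (p = 0.75 for both, Benjamini-Hochberg adjusted p = 0.75 for both).

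Region by region, a rank lower in both sh2 lists than in both NT lists was seen at 271 of 1018 chromosome 4 regions in RS4;11 (26.6%, beside 18.5% over all chromosomes), 172 in SEM (16.9%, beside 26.1%) and 365 in RCH (35.9%, beside 25.4%). A higher rank was seen at 217 in RS4;11 (21.3%, beside 23.5%), 343 in SEM (33.7%, beside 22.1%) and 181 in RCH (17.8%, beside 28.6%). By the density of the window, the shift had no single order in the 3 lines. In windows of both chromosomes with at most 15 regions open in all lists (188 regions) the median rank differed by -8.59 (RS4;11), 12.5 (SEM) and -14.6 (RCH). In windows with 16 to 30 (447 regions) it differed by -5.96, 14.8 and -12.5, and in windows with more than 30 (861 regions) by 1.06, 4.03 and -6.07. In SEM the middle class had the largest of the 3 differences.

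**Figure D4:**
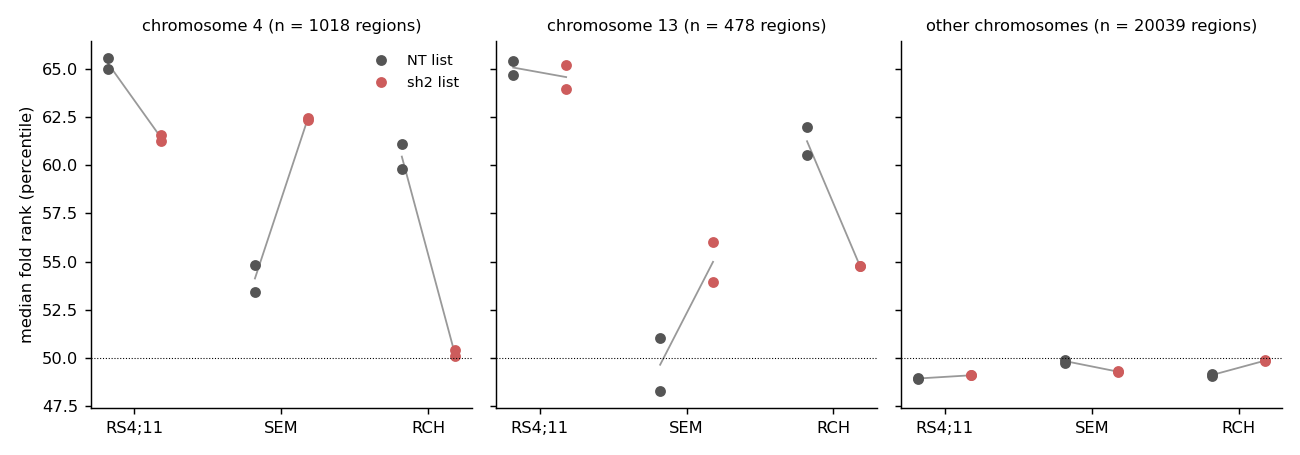
Median percentile rank of fold enrichment, per list, of regions open in all 12 lists on chromosome 4, chromosome 13 and the other chromosomes, ranked among all 21535 such regions. Points are lists, lines join the means of NT and sh2, and the dotted line marks the 50th percentile. On chromosome 4 the sh2 points lie below the NT points in RS4;11 and RCH (61.3 to 61.6 and 50.1 to 50.4) and above them in SEM (62.4 and 62.5), while all points of the other chromosomes lie just below the dotted line.

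With the control shRNA SEM differed from the other lines on chromosome 13. Its NT lists held a mean of 1151 ± 101.8 peaks there (SD, n = 2 lists), against 1634 ± 1.41 in RCH. With all 12 lists cut to 41594 peaks, SEM had 0.59 times as many NT peaks as RS4;11 from 35 to 115 Mb (a mean of 662 against 1117.5), whereas RCH had 0.88 times as many. From 20 to 35 Mb of the same chromosome SEM had 0.96 times as many as RS4;11, on chromosome 4 it had 0.86, and on other chromosomes 1.02. Of 573 windows of all chromosomes, the lowest ratio of SEM to RS4;11 was at 55 to 60 Mb of chromosome 13, with means of 17 peaks in SEM, 39 in RS4;11 and 34.5 in RCH. The windows from 60, 65 and 70 Mb had ranks 3, 6 and 5 from the lowest.

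With sh2 this gap was narrower, at 0.80 times the RS4;11 number from 35 to 115 Mb (a mean of 799 against 1002.5). The SEM number was thus higher than with NT, and the RS4;11 number lower. Regions open in all 12 lists gave the same order in fold rank. The 360 such regions from 35 to 115 Mb had SEM medians of 45.1 and 42.7 in NT lists and 53.8 and 55.6 in sh2 lists, and the 115 from 20 to 35 Mb had 58.7 and 58.6 against 54.3 and 57.0. The limits of these stretches were chosen after the window values were seen, so the gap is a description with no test.

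**Figure D5:**
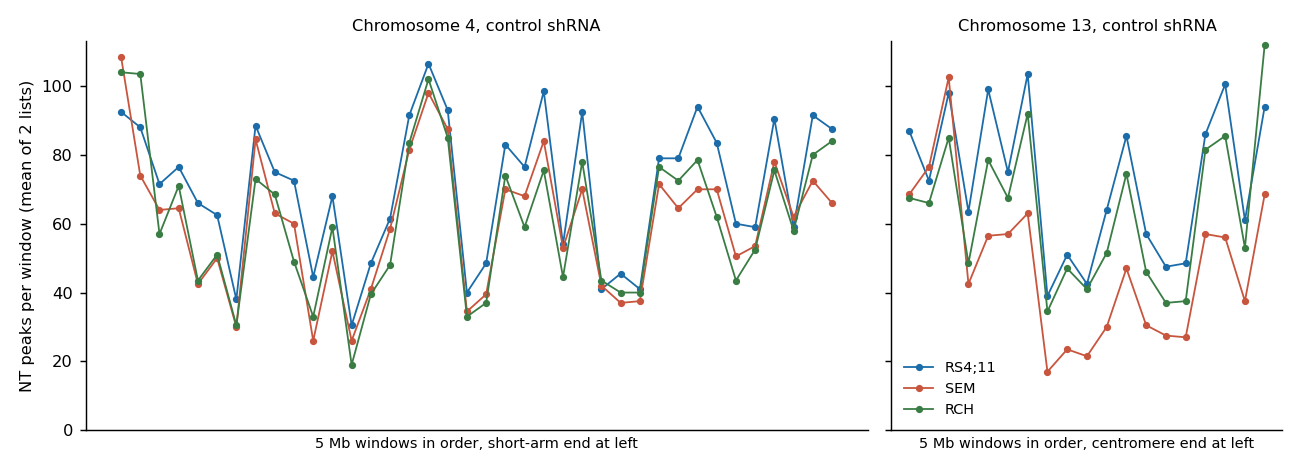
Mean number of NT peaks per 5 Mb window along chromosome 4 and chromosome 13 in the 3 lines, with all 12 lists cut to 41594 peaks, for windows with a mean of at least 20 NT peaks in RS4;11. The lines run close together on chromosome 4, and on chromosome 13 SEM lies below both other lines in every plotted window from 35 Mb on, down to 17 peaks at its lowest.

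Few regions changed in more than 1 line. On the 2 chromosomes 179 regions (1.34%) were NT-only in at least 2 lines, where 1.08% of the regions of all chromosomes were, and 8 (0.0601%) in 3 lines, beside 0.0588%. The sh2-only class held 3 in at least 2 lines (0.0225%, beside 0.0902%) and none in 3 lines (beside 0%). At equal length the counts were 99 (0.744%, beside 0.629%), 5 (0.0376%, beside 0.0344%), 14 (0.105%, beside 0.296%) and none (beside 0.000764%). Shares in 3 lines were thus close to those of all chromosomes. With RCH NT list 1 left out, 300 regions were NT-only in at least 2 lines, and with SEM NT list 1 or 2 left out, 16 or 13 were NT-only in 3. Regions sh2-only in at least 2 lines numbered 5 to 17 without any 1 list other than SEM NT list 1, without which there were 4.

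RS4;11 and RCH had 140 NT-only regions in common, 10.6% of those of RS4;11 and 15.3% of those of RCH. Over all chromosomes they had 1016, which were 10.8% and 13%. All 141 regions that changed in both lines changed in the same direction, as 1043 of 1109 did over all chromosomes. Of 81 regions changed in both SEM and RCH, 58 changed in opposite directions (71.6%, beside 411 of 679 or 60.5% over all chromosomes), and of 74 changed in RS4;11 and SEM, 40 did (54.1%, beside 358 of 734 or 48.8%). At equal length the corresponding counts were 63 of 65, 38 of 59 and 31 of 70, beside 673 of 745, 424 of 651 and 398 of 801 over all chromosomes. Of the changed regions as deposited, 2.59% were sh2-only in RS4;11, 3.67% in RCH and 84.1% in SEM. Class sizes alone thus make the same direction common in RS4;11 and RCH, and opposite directions common with SEM. The counts were not tested against that.

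Of the regions NT-only in 3 lines, the first by fold rank on chromosome 4 was chr4:144876458-144876780, with NT folds of 7.28 and 9.95 in RS4;11, 7.02 and 6.11 in SEM and 6.87 and 7.15 in RCH, and no sh2 peak. The next, chr4:59407948-59408447, had 7.99 and 8.23, 5.07 and 7.19, and 4.96 and 6.93. The single one on chromosome 13, chr13:70664177-70664876, had NT folds from 3.68 to 6.47.

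Regions lost in RS4;11 and RCH included some that moved the other way in SEM. At chr13:102173030-102173440 the NT folds were 9.94 and 7.72 in RS4;11 and 11.1 and 8.43 in RCH, with no sh2 peak in either. SEM had a peak there in all 4 lists, with folds of 8.14 and 4.67 with NT and 19.4 and 16.7 with sh2. NT-only in RS4;11 and RCH and sh2-only in SEM were 3 regions, all on chromosome 13 (0.0225% of the regions of both chromosomes, beside 30 regions or 0.0229% over all chromosomes). At equal length there was 1 (0.00751%, beside 10 regions or 0.00764%). One of them, chr13:59686503-59686894, had NT folds of 12.6 and 10.5 in RS4;11 and 4.60 and 6.32 in RCH, and sh2 folds of 7.17 and 4.56 in SEM.

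The strongest changes within a line were often open elsewhere. At chr4:158029780-158030433, first among the NT-only regions of RS4;11 on its chromosome (folds 18.0 and 15.2), SEM and RCH had a peak in all lists, at 12.8 and 12.6 with NT and 6.36 and 7.18 with sh2 in SEM and at 10.0 and 13.2 against 8.01 and 9.95 in RCH. The first of chromosome 13, chr13:86192625-86193064 (18.5 and 16.4), was NT-only in RCH as well, at 5.34 and 5.06. In RCH the first were chr4:87182778-87183191 (13.1 and 10.8) and chr13:57982481-57982912 (13.7 and 11.9). Both also had peaks in both NT lists of RS4;11, from 5.16 to 8.25.

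The first sh2-only regions of SEM were chr4:11539474-11539831 (sh2 folds 14.7 and 12.4) and chr13:58520511-58520880 (13.7 and 11.1). Both were open in all 4 lists of RS4;11, with folds of 14.4 and 9.29 with NT and 11.5 and 9.12 with sh2 at the first and 12.3 and 10.1 against 7.30 and 6.47 at the second. In contrast, the first sh2-only region of RS4;11 on chromosome 4, chr4:154239948-154240174, reached folds of 6.39 and 4.83 and had no peak in any other list.

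Some regions were open in all 4 lists of a line and in no list of the others, 167 on chromosome 4 and 176 on chromosome 13 in RS4;11, 71 and 27 in SEM and 43 and 34 in RCH. They were 2.38% and 5.16% of the open regions of RS4;11 (2.77% over all chromosomes), 1.48% and 1.48% of those of SEM (1.58%) and 0.995% and 1.66% of those of RCH (1.57%). The NT lists of RS4;11 were the longest, and with all 12 lists at equal length the shares were 2.36% and 4.29% (2.35%), 2.45% and 1.42% (1.94%), and 1.93% and 2.94% (2.23%) in the same order. The first by fold rank was chr13:25246192-25246654 in RS4;11, with folds of 15.8 and 15.9 with NT and 16.5 and 12.8 with sh2. In RCH it was chr13:20138889-20139539 (18.7 and 14.5 against 13.5 and 11.4), and in SEM chr4:128553668-128554257 (11.8 and 10.7 against 12.3 and 12.7). The 2 highest regions open in all 12 lists were chr4:180910927-180911681, with folds from 17.5 to 27.4, and chr13:60737592-60738648, with folds from 17 to 24.6.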

How the data were processed

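ATAC-seq peak lists of 6 samples were used, 2 lists per sample. The submitters' processing notes name Bowtie2, MACS2 and hg19. Versions, settings and depth are not given in the sources consulted. The value deposited with each peak was taken as a fold enrichment (ratio), a reading inferred from the values, and it served to rank, cut and describe peaks within a list. Depth is unknown, so no floor was set.

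Peaks on chromosomes 1 to 22 and X were merged with at least 1 bp of overlap, checked with bedtools 2.31.1, and members stayed the same under all cuts. A peak was counted in the 5 Mb window of its midpoint. Equal-length lists kept the highest folds, with ties at the limit taken in a seeded random order. NT and sh2 were paired by the cell line in the titles, and tested by exact two-sided flips of the 3 lines' signs, and p-values were adjusted over the 2 chromosomes. No test was made within a line. Named windows had the 2 lowest and 2 highest ratios per line and chromosome (mean of at least 20 peaks), or most or fewest regions. Named regions had the highest mean fold percentile in their class, and those printed are a selection of them. Members and rules were chosen with earlier results of these data known, and the density classes, the ranks at regions open in all lists, the extreme windows and the stretches of chromosome 13 after the values were seen. Alternatives were equal lengths, a fold limit, 50% coverage, other windows, other reference chromosomes, and lists or lines left out. Steps were tested on simulated data. Gene assignments and sequences were not used here, since no hg19 annotation was at hand. Software was scipy 1.17.1, pandas 2.3.3, numpy 2.4.6 and matplotlib 3.10.9 under Python 3.11.15.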

Additional observations from a re-analysis of the deposited data

Results flagged for a closer look

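SEM went the opposite way to the other lines on both chromosomes, in all of its lists. The log2 ratio of peak number minus that of the other chromosomes was -0.24 in RS4;11 and -0.37 in RCH on chromosome 4, and 0.17 in SEM. On chromosome 13 it was -0.14 in RS4;11 and -0.31 in RCH, and 0.18 in SEM. The difference between lines was not tested, since each line has 1 sample per shRNA.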

How the results depend on the processing

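The mean log2 ratio minus that of the other chromosomes kept its sign under all settings run, except that on chromosome 13 it was 0.021 without RCH. With 1 list left out it ranged from -0.16 to -0.14 on chromosome 4 and from -0.11 to -0.061 on chromosome 13. Without the pairing by line (no replicate block) the means were -0.15 and -0.09, with exact permutation p = 0.6 and p = 0.9. No call could change, since with 6 samples neither test can give a p low enough to pass. Of 302 recomputed values, 212 were labelled the same, 89 moved and 1 changed sign. For the means over lines, the same meant only that the sign was kept. The chromosome 4 mean, for instance, was -0.31 without SEM and -0.036 without RCH, and the chromosome 13 mean was -0.22 without SEM.

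Counts of single regions moved most. With equal lengths within a line, NT-only and sh2-only regions numbered 735 and 201 in RS4;11 and 496 and 93 in RCH, SEM had 226 NT-only, and the counts over lines were 99 (NT-only, at least 2), 5 (NT-only, 3) and 14 (sh2-only, at least 2). With all 12 lists of equal length they were 482 and 127 in RS4;11, 496 and 93 in RCH, 363 sh2-only in SEM, and 109 and 14 in at least 2 lines. Above the pooled median fold of 6.37, RS4;11 had 665 and 53, SEM 59 and 452, RCH 9 sh2-only, and NT-only regions numbered 84 in at least 2 lines and 3 in 3. At 50% coverage 5 regions were sh2-only in at least 2 lines. NT-only regions in at least 2 lines numbered 21 without RS4;11 and 34 without RCH, and sh2-only ones 1 without SEM and 0 without RCH.

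With 1 list left out, NT-only and sh2-only regions ranged from 1658 to 3127 and 95 to 402 in RS4;11, 225 to 446 and 959 to 1340 in SEM, and 1121 to 1908 and 72 to 284 in RCH. Over lines the ranges were 196 to 300 and 9 to 16 NT-only (at least 2 and 3 lines), and 4 to 17 and 0 to 0 sh2-only. Windows ranged from 95% to 98.3% lower and 1.67% to 3.33% higher in RS4;11, 0% to 1.69% lower and 93.2% to 96.6% higher in SEM, and 95% to 98.3% lower and 0% to 1.67% higher in RCH. Higher windows of RS4;11 made up 3.23% with 10 Mb windows, 15% at equal length and 13.3% with all lists equal, lower windows of SEM 5.08% and 8.47%, and higher windows of RCH 5.00% in both. Depth is unknown, so how far it limits weak peaks could not be measured.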
